A study of Mus musculus with 6 samples.

Results

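The data described here are the 3 wild-type (WT) libraries of a series of 6 bulk RNA-seq libraries from mouse haematopoietic stem cells. They were taken by their labels as the 3 control columns of the deposited table, and no value was used to choose them. The other 3 libraries, from mice with the db mutation of the leptin receptor, were not used. The table lists 23955 gene symbols, and 3 rRNA-like symbols were set aside, which left 23952.

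All 3 WT libraries came from C57BL/6 mice of genotype WT, littermates of the db/db mice, at 4 months of age. Bone marrow of the long bones and hips was cleared of red cells, enriched for c-Kit, and sorted for CD150+ CD48- LSK cells (lineage-negative, Sca-1+, c-Kit+), with 20000 cells in each library. The libraries belong to 3 independent experiments, and WT replicates 1, 2 and 3 are those of experiments 1, 2 and 3. The lineage antibodies were against T cell proteins (CD3, CD4, CD5 and CD8), myeloid proteins (Gr-1 and Mac1), B220 of B cells, Ter-119 of red cells, and the interleukin 7 receptor CD127. The labels speak of a mouse in one place and of mice in another, so it is unclear whether a library held cells of 1 animal or of several, and they give no sex. RNA was amplified linearly, and the libraries were made with a stranded mRNA kit and read as pairs of 75 nucleotides. Values are in TPM, a unit of transcript abundance that corrects for transcript length and sums to 1e+06 in each library. Levels of different genes are set side by side on that basis, and whether the correction holds after amplification was not tested. Because TPM holds no read counts, library depth is unknown, and the error given is the SD over the 3 libraries. With 1 library per experiment, a difference between experiments could not be tested, and no p-value is given.

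Haematopoietic stem cells renew themselves and give rise to all blood lineages. In the adult marrow most of them rest outside the cell cycle, held there by signals of the niche such as stem cell factor, whose receptor is the product of Kit. The gate used here reads 3 surface proteins as present: CD150 (Slamf1), c-Kit (Kit) and Sca-1 (Ly6a). Hlf, a transcription factor, and Procr, the endothelial protein C receptor, mark stem cells in many mouse studies but were not used for the sort.

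All 5 of these genes were above 0 in each library, at very different heights. Ly6a stood at 381, 308 and 463 TPM in replicates 1, 2 and 3, Hlf at 277, 169 and 325 TPM, and Kit at 233, 164 and 349.5 TPM. In each of these genes replicate 2 was the lowest library and replicate 3 the highest, which is also the order of the libraries' medians, 14.4, 12.2 and 17.8 TPM in replicates 1, 2 and 3 over genes whose mean reached 1 TPM. Procr had 41.4, 82.9 and 53.6 TPM, with replicate 2 on top. Slamf1 was lowest of the group, with 24, 11.9 and 17.6 TPM. By mean TPM over the 3 libraries, Ly6a had rank 267, Hlf rank 400, Kit rank 413, Procr rank 1811 and Slamf1 rank 5263 of 23952 symbols. The means of Hlf and Kit, 257 ± 79.8 and 249 ± 93.8 TPM (SD, n = 3), were within the spread between libraries. The highest Procr library was below the lowest Kit library, and the highest Slamf1 library was below the lowest Procr library. The 5 markers of the labelled cell type were thus all above 0 in each library, which also held for 12416 of the 23952 symbols. Kit, Ly6a and Slamf1 encode proteins that the sort used. The genes of the cells that the gate removes are given further on.

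**Figure D1:**
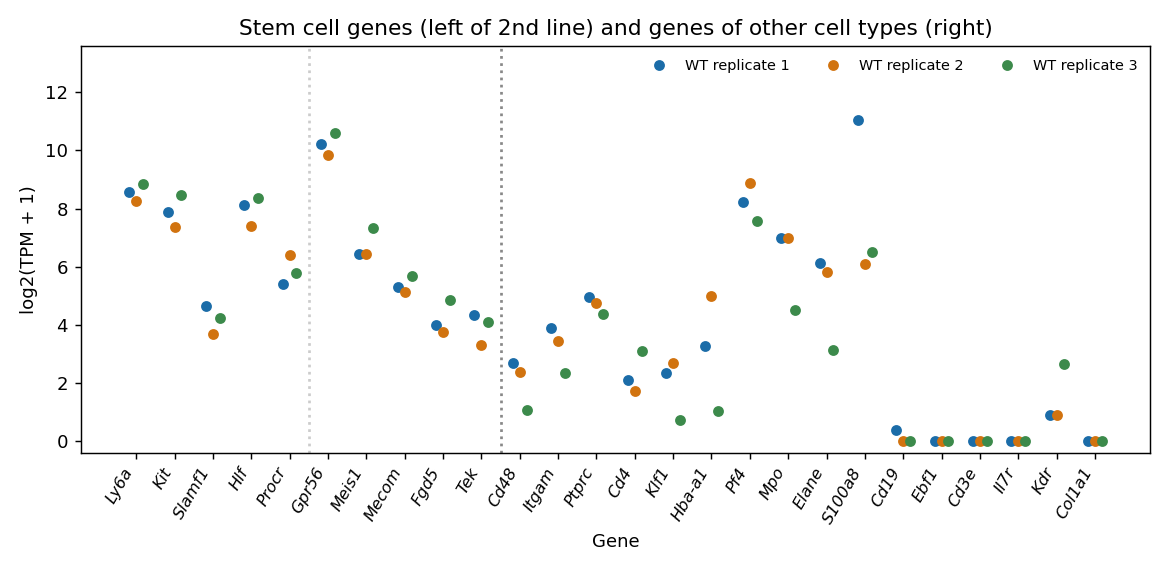
Level of stem cell genes and of genes of other cell types on the log2(TPM + 1) axis, with 1 point for each WT library. The 5 label markers are left of the first dotted line, other stem cell genes are between the lines, and genes of other cell types are on the right, where S100a8 reaches 2127 TPM in replicate 1 and 67.8 and 90.5 TPM in the others, and Ebf1, Cd3e, Il7r and Col1a1 are listed at 0.

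Promoter sequence of the 4 markers found in the RefSeq promoter table (build GRCm38.p6) is given here, because these markers had promoters of unlike composition. S100a8, a granulocyte gene, and Rps23, a ribosomal protein gene near the top of the ranking, are added as contrasts. Each line gives the 100 bases before the first listed transcription start, 5′ to 3′ on the gene's strand, and the capitals mark CG dinucleotides.
Slamf1: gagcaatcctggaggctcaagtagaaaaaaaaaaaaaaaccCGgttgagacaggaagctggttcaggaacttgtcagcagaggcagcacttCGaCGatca
Procr: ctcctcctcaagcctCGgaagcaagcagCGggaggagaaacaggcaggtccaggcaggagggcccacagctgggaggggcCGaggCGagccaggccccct
Kit: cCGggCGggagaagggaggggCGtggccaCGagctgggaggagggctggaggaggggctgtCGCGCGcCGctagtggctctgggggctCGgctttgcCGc
Hlf: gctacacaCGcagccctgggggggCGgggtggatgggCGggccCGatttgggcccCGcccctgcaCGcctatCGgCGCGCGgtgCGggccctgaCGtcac
S100a8: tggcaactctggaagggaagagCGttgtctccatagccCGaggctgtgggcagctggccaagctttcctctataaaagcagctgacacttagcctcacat
Rps23: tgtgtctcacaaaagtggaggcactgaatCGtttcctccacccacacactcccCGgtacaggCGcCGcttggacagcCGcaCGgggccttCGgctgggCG

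These windows lie at chr1:171767032-171767131 (Slamf1, plus strand), chr2:155751117-155751216 (Procr, plus), chr5:75574887-75574986 (Kit, plus), chr11:90390918-90391017 (Hlf, minus), chr3:90668971-90669070 (S100a8, plus) and chr13:90923022-90923121 (Rps23, plus). Slamf1 held 3 CG dinucleotides, Procr 4, Kit 10, Hlf 12, S100a8 2 and Rps23 8. Over the whole 300-base window, from 250 bases before to 50 after the start, the ratio of observed to expected CG was 0.223 in Slamf1, 0.528 in Procr, 0.621 in Kit, 0.893 in Hlf, 0.214 in S100a8 and 0.683 in Rps23. Ly6a has no entry in the table.

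Among the genes whose mean reached 1 TPM, 9405 of 11712 (80.3%) had a promoter entry, and 73.7% of these had a ratio above 0.6. In the first 1000 genes by rank the share was 76.4% of 819 promoters, and in ranks 1001 to 5000 it was 78.3% of 3267. The share over all 27025 genes of the promoter table was 36.4%. Promoters high in CG were thus about as common in the first 1000 ranks as in the next 4000. The list of granulocyte and monocyte genes stood apart in composition, with 1 of 25 promoters above 0.6, while the replication-dependent histones had 33 of 48. The letters TATAAA, searched on the gene's strand in the 50 bases before the start, were present in 14 of the 48 histone promoters, in 3 of the 25 granulocyte promoters, in 3.91% of the first 1000 ranks and in 2.88% of all promoters. A match of letters is a description and not a bound site. For the ribosomal protein genes (62 of 83 with an entry) and the stem cell list (35 of 50) fewer than 80% had a value, so this check was void for them and no share is given.

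The transcript pool was steeply graded. With the rRNA-like symbols set aside, 11712 symbols had a mean of at least 1 TPM, 7287 at least 10, 1047 at least 100 and 129 at least 1000 TPM, while 9152 were listed at 0 in all 3 libraries. Symbols above 0 numbered 13316, 13807 and 13563 in replicates 1, 2 and 3, and 12416 were above 0 in all of them. Counts of list members at 1 TPM or more, given below, stand beside the 11712 of 23952 symbols. By mean, 36 genes carried 25% of the TPM left, 138 genes carried 50%, 1097 carried 75% and 3668 carried 90%. The 10 highest genes held 9.90% and the 100 highest 44.9%. The pool was most concentrated in replicate 2, where 104 genes carried 50% and the library's own first 100 held 49.3%. It was least concentrated in replicate 3, where 193 genes carried 50% and the first 100 held 40.4%. In replicate 1 the values were 131 genes and 45.7%.

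**Figure D2:**
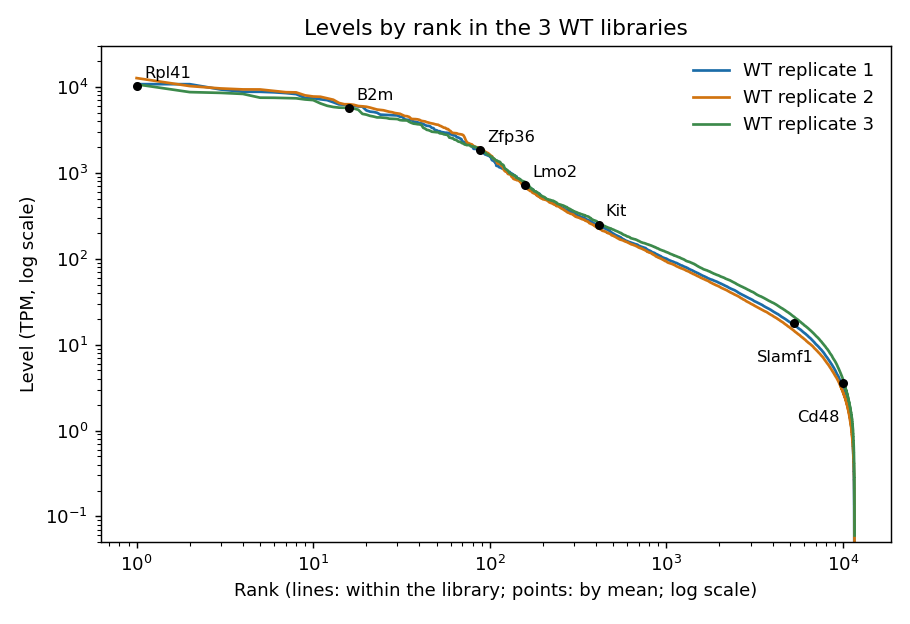
Level in TPM against rank, both on log axes, for genes whose mean reached 1 TPM. Each line is 1 WT library with its own ranks, and black points mark named genes at their mean TPM and mean rank. The lines of replicates 2 and 3 cross near rank 100, with replicate 2 mostly higher before it and replicate 3 higher after it.

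Genes of the cytosolic ribosome filled the top. Their products form the small and large subunits that translate mRNA. Of 83 such genes, 69 were among the first 100 symbols and 21 among the first 25. They summed to 36.1%, 40.7% and 30% of the TPM left in replicates 1, 2 and 3. The 34 genes of the small subunit had a median of 3526 TPM and the 49 of the large subunit 2475 TPM, beside 15.1 TPM over all genes whose mean reached 1 TPM. Rpl41 was first, with 10770.4, 12672 and 7021 TPM. It was the first gene in replicates 1 and 2 and the 10th in replicate 3. Rpl10 had 9323, 7972 and 10714 TPM and was the first gene in replicate 3. Rps23 was steadier, with 8651, 9596 and 8699 TPM (mean 8982 ± 532, SD, n = 3). Rpl22 was lowest in the large subunit, with 313, 427 and 371 TPM, and Rps27l lowest in the small subunit, with 489, 285 and 473 TPM.

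Messenger RNAs of ribosomal proteins are known to begin with a run of pyrimidines, through which their translation is tied to growth signals. For 4 of the highest such genes the longest run of C and T near the start is shown, since it is a feature that the ranking did not use. Each line gives 30 bases, 5′ to 3′ on the gene's strand, with the run in capitals.
Rpl41: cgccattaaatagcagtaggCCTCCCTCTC
Rpl10: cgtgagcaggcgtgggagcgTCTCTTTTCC
Rps23: tgggtccttcctgcaCCTCCTCTCTCTTTC
Rpl28: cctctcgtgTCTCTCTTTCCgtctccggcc

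These windows lie at chr10:128549119-128549148 (Rpl41, minus strand), chrX:74270836-74270865 (Rpl10, plus), chr13:90923142-90923171 (Rps23, plus) and chr7:4792953-4792982 (Rpl28, plus), in RefSeq's GRCm38.p6. The capitals hold 10, 10, 15 and 11 bases. In Rpl41, Rpl10 and Rps23 the run reaches the edge of the searched window, 50 bases after the listed start, so its length is a minimum and it lies downstream of that start, while in Rpl28 it spans the start. A run of at least 8 pyrimidines, on the gene's strand within 50 bases of either side of the start, was present in 35.7% of all 27025 promoters and in 35.7% of the first 1000 ranks, so such runs are common. The share over the ribosomal list is not given, for the reason named above.

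Beside these 83 genes, 31 symbols of the first 100 remained, some of them copies of ribosomal protein genes, which held 10.9%, 10.2% and 11.6% of the TPM left. Eef1a1, the factor that brings aminoacyl-tRNA to the ribosome, was the highest of them with 5989, 4868 and 8523 TPM. B2m, which encodes the small chain that every class I MHC molecule carries, had 4735, 4714 and 7426 TPM. Both were highest in replicate 3. Sod1, the cytosolic superoxide dismutase, had 5331, 4192 and 5838 TPM at rank 22. Actb, the cytoskeletal actin, had 4657, 4229 and 4856 TPM, and Gapdh, a glycolytic enzyme, 3527, 3845 and 4071 TPM. These last 2 differed by a factor of at most 1.15 between libraries. H2afz, a histone variant, had 4696, 3122 and 5740.1 TPM. Ifitm3, a membrane protein of antiviral defence that is also high in many stem cells, had 4756, 3792 and 4756 TPM at rank 31. Its relatives Ifitm2 and Ifitm1 held ranks 39 and 97.

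Some of the first 100 are near-identical copies, whose reads RSEM divides by an estimate. Of the 99 with a transcript in the GENCODE M21 annotation, 10 had at least 50% of their 75-base stretches in transcripts of another symbol, and only 6 had none there. Gm12191, a transcribed pseudogene at rank 18 with 4494, 6508 and 5423 TPM, shared 100% of its stretches with other symbols, so its level is uncertain. Rps27rt shared 90.3% with Rps27. Rps27 alone had 10761, 10229 and 5726 TPM and Rps27rt alone 1155, 2885 and 2964 TPM, while their sums were 11916, 13114 and 8689.9 TPM. Replicate 1 was thus the lowest library for Rps27rt and the middle one for the sum. Gm15772 shared 58.8% with Rpl26, and Rpl34-ps1 shared 100% with other symbols. B2m shared none, and Ifitm3 0.662%.

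The order of the first ranks held between experiments as a set more than as an order. Among each library's own first 100 genes, 89 were common to all 3 libraries. For the first 10 genes the number was 6, for the first 1000 it was 801. S100a8, Egr1 and Rps7 were in the first 100 of replicate 1 alone. Rpl37, Rpl23, Snrpg and Oaz1 were there in replicate 2 alone, and Hsp90ab1 and Ptma in replicate 3 alone. Rps7 differed by a factor of 1.07 between libraries and lay at ranks 95, 101 and 103, whereas S100a8 lay at ranks 78, 1393 and 1372. Across the 11712 genes the log2(TPM + 1) values of pairs of libraries correlated with Pearson's r of 0.930 to 0.937 and Spearman's rho of 0.926 to 0.929. This is across genes, which are not independent replicates.

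Stem cell genes reached from near the top to the lower ranks. All 50 genes of a list of stem cell identity had a mean of at least 1 TPM, with a median of 67.9 TPM and a median rank of 1560. Over all genes at that level the median was 15.1 TPM and the median rank 5856.5. Its highest members were Ifitm3, Zfp36 and Ifitm1. Meis1, a homeobox partner of Hox proteins, had 84.7, 85.8 and 159 TPM, and Mecom, a zinc finger regulator of stem cell maintenance, 38.7, 34.2 and 50.7 TPM. Fgd5 had 14.8, 12.6 and 27.9 TPM and Tek, the angiopoietin receptor, 19.3, 8.89 and 16.0 TPM. Gfi1, a repressor that restrains proliferation, was lowest of the list with 1.99, 3.88 and 4.75 TPM (mean 3.54 ± 1.41, SD, n = 3). Cd34, which is low on the surface of the most dormant stem cells, had 154, 171 and 184 TPM. Txnip, an inhibitor of thioredoxin, was the widest member of the list with 504, 277 and 949 TPM. It was lowest in replicate 2 and highest in replicate 3.

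Of 165 transcription factors, cofactors and mRNA regulators, 151 had a mean of at least 1 TPM, with a median of 20.4 TPM over the list. Zfp36, which binds and destabilises AU-rich mRNAs, was highest with 1888, 1744 and 1898 TPM, at ranks 85, 95 and 87. Egr1, a zinc finger factor induced by many stimuli, had 1612, 670.5 and 1388 TPM and was lowest in replicate 2. Lmo2, an adaptor in the SCL complex of blood stem cells, had 669, 479.8 and 997 TPM. Fos and Jun, the subunits of AP-1, had means of 645 ± 100 and 342 ± 125 TPM (SD, n = 3). The 15 highest also held Tsc22d1, Trp53, Nfe2, Atf4, Ybx1, Zfp36l2, Max, Hlf, Nr4a1 and Gata2. Gata2, a factor required by stem cells, had 218, 158 and 244 TPM, and Trp53, the p53 gene, 428, 336 and 452 TPM. Nr4a1, an orphan nuclear receptor, spread from 117 in replicate 2 to 372 in replicate 1. Of 39 Hox genes, 13 had a mean of at least 1 TPM and 19 were listed at 0 in all 3 libraries. Hoxa10 led with 15.1, 7.50 and 25.5 TPM, followed by Hoxa9 and Hoxb5 with means of 14.0 and 10.9 TPM, while Hoxd13 was listed at 0.

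Immediate early genes, which cells switch on within minutes of a stimulus, stood high, with 29 of 30 at a mean of at least 1 TPM and a list median of 52.2 TPM. Dusp1, a phosphatase of MAP kinases, had 1032, 1043 and 971 TPM and was among the steadier genes of the list. Dusp5, another phosphatase of this family, had 27.5, 6.46 and 4.31 TPM, and Egr2 had 5.96, 0 and 4.06 TPM. These were the 2 members with more than 4-fold between the highest and the lowest library, with 1 TPM added to both, a spread found in 505 of the 11712 genes (4.31%). Over 2-fold apart were 14 of the 29, beside 3838 genes (32.8%). Of the 151 transcription factors 4 were over 4-fold apart, and of the 46 receptors 2.

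Receptors were spread over the whole range, and 46 of 51 had a mean of at least 1 TPM, with a list median of 12.2 TPM. Gpr56, an adhesion receptor of stem cells, was highest with 1202, 922 and 1561 TPM, above Kit. Lepr, the leptin receptor, had 2.34, 2.93 and 2.79 TPM (mean 2.69 ± 0.308, SD, n = 3), at rank 10466. Csf2ra, a chain of the GM-CSF receptor, had 13.9, 1.78 and 17.1 TPM and was lowest in replicate 2. Among genes of adhesion and niche retention, Cd81, Cd63 and Cd34 led, with means of 839, 696 and 169.8 TPM, and Cdh2 was listed at 0.

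**Figure D3:**
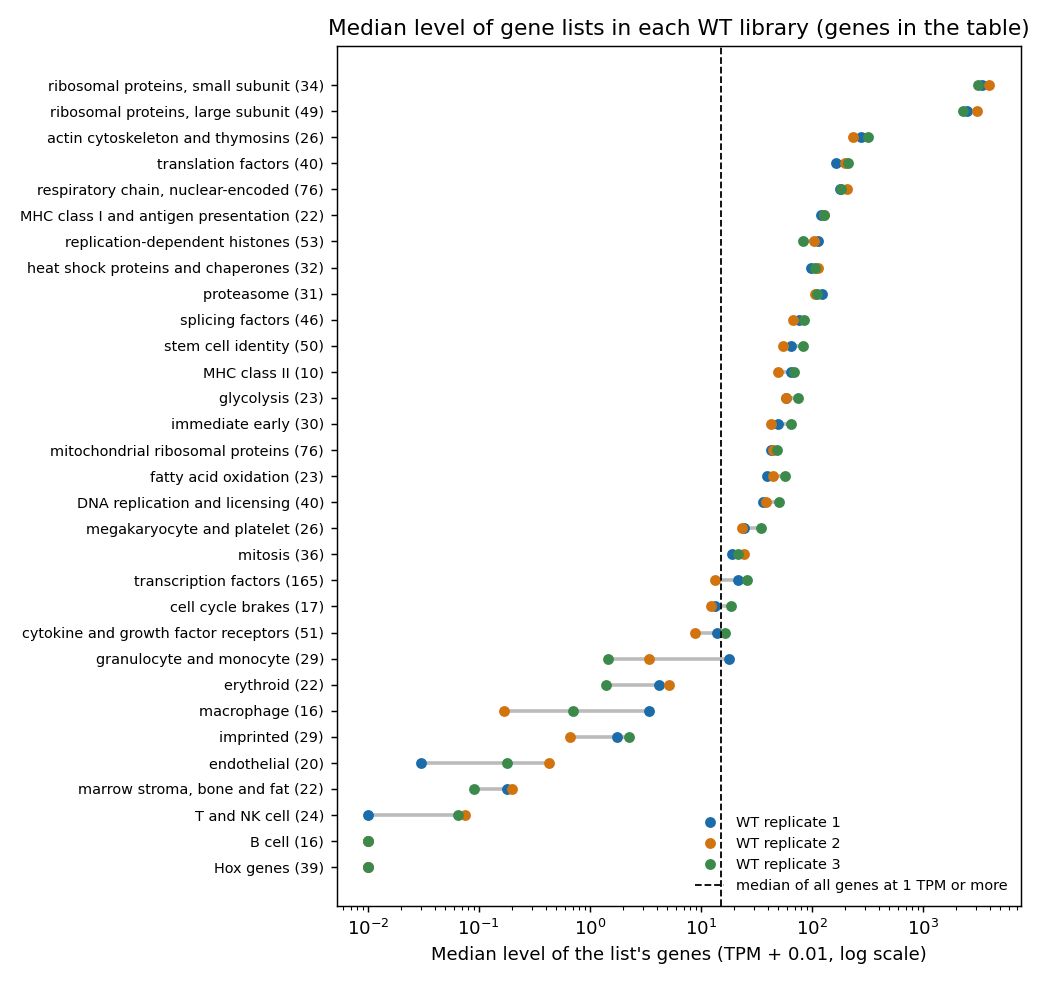
Median level of 31 gene lists, 1 point for each WT library, on a log axis with 0.01 TPM added. The number of genes found is in brackets, the dashed line is the median of 15.1 TPM over all genes whose mean reached 1 TPM, and the grey bar joins the lowest and the highest library, which lie close together in the ribosomal and other housekeeping lists and far apart in granulocyte and macrophage genes and in some lists with medians under 1 TPM.

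Housekeeping groups sat below the cytosolic ribosome, some above and some below the stem cell list with its median of 67.9 TPM. Actin cytoskeleton genes had a median of 289.8 TPM, translation factors 199 TPM, nuclear-encoded genes of the respiratory chain 184 TPM, heat shock proteins and chaperones 112 TPM, proteasome subunits 111 TPM and splicing factors 78.0 TPM. Mitochondrial ribosomal proteins, with 76 of 76 genes whose mean reached 1 TPM, had a median of 45.0 TPM. For carbon metabolism, all 23 glycolysis genes passed 1 TPM with a median of 58.5 TPM, and 21 of 23 fatty acid oxidation genes did with 44.1 TPM. Gapdh, Ldha and Aldoa led glycolysis with means of 3814, 1142 and 379 TPM. Tpi1, triose phosphate isomerase, was nearly equal in the libraries at 209.8, 212 and 212 TPM, while Eno1, enolase, had 70.4, 117 and 209 TPM. Eno1 shared 23% of its 75-base stretches with other symbols, so part of its reads may be divided. Etfb and Cpt1a, the latter the gate of fatty acid entry into mitochondria, led fatty acid oxidation with 416 ± 52.1 and 106 ± 33.3 TPM (SD, n = 3). In the antioxidant list, Sod1 and Gpx1, a glutathione peroxidase, were far above the list median of 79.4 TPM.

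Genes of division were present at moderate levels. All 40 genes of DNA replication and licensing had a mean of at least 1 TPM, with a median of 42.0 TPM. Pcna, the sliding clamp of DNA polymerase, led with 420.1, 483 and 609 TPM, followed by Mcm6 and Mcm3 of the replicative helicase with means of 148 and 139 TPM. All 36 mitosis genes passed too, with a median of 21.8 TPM, and Ube2c, a ubiquitin-conjugating enzyme of mitotic exit, led with 214, 308 and 217 TPM. Of the G1 cyclins and kinases, Cdk4 had a mean of 447 ± 45.3 TPM, Ccnd3 161 ± 30.3 TPM and Ccnd2 94.1 ± 44.4 TPM (SD, n = 3). Of 17 genes that restrain the cycle, 15 passed 1 TPM. Trp53, Cdkn2d and Btg2 led, and Cdkn2b was listed at 0. A bulk library cannot tell many cells with little of an RNA from few cells with much of it, and this holds for every level given here.

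Replication-dependent histones, whose mRNAs normally end in a stem-loop in place of a poly(A) tail, were high in these libraries. Of 53 genes, 52 had a mean of at least 1 TPM, with a median of 116 TPM, and they summed to 2.44%, 1.74% and 1.5% of the TPM left. Hist1h4d had 5154, 3491 and 3736 TPM at rank 37. Hist1h2bl had 2733, 1976 and 1789 TPM, but 73.3% of its stretches lie in other histone genes. Replicate 1 was the highest library in 39 of the 53 genes, of which 1 had a mean below 1 TPM. Over the 11712 genes whose mean reached 1 TPM, it was highest in 2732. Against each library's median shift, given below, the median member was 0.44 higher on the log2(TPM + 1) scale in replicate 1 and 0.51 lower in replicate 3. In replicate 2 it was 0.14 higher by this measure and 0.05 lower without the shift taken off.

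Genes of antigen presentation were also high. All 22 genes of MHC class I and its pathway had a mean of at least 1 TPM, with a median of 127 TPM, and H2-K1, a class I heavy chain, had 1895, 2179 and 2388 TPM. All 10 MHC class II genes passed as well, with a median of 61.4 TPM. H2-Aa, a class II alpha chain, had 319, 247 and 459.8 TPM, and Cd74, the invariant chain, 294, 165 and 511 TPM. Ciita, the class II transactivator, was lowest with 3.83, 0.56 and 2.68 TPM. Of 40 interferon-stimulated genes, 39 passed, with a median of 33.2 TPM, and Mx1 was near 0 in all 3 libraries. Ifit1 was the widest member with 20.9, 2.73 and 5.04 TPM, high in replicate 1.

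Of 20 long noncoding RNAs, 18 passed 1 TPM, with a median of 81.6 TPM. Malat1, a nuclear RNA, led with 674, 896 and 827 TPM, followed by Gas5, a host of small nucleolar RNAs, with 404, 466 and 544 TPM. Of 29 imprinted genes, expressed from 1 parental copy, 16 passed, beside 11712 of all 23952 symbols. Their list median was 1.17 TPM, beside 0.803 TPM over all symbols. Gnas, Grb10 and Ndn led them with means of 611, 78.9 and 41.3 TPM, and Igf2 had 3.02, 0.55 and 3.97 TPM. Of 18 genes of the BCL2 family, 10 passed, and Mcl1, which keeps stem cells alive, was highest with 168, 118 and 271 TPM.

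Genes of the lineage antibodies and of lymphoid and mast cells mostly had means under 1 TPM, with exceptions. Of 13 genes behind the lineage antibodies and CD48, 6 had a mean of at least 1 TPM, and the list median was 0.53 TPM. Over all symbols 11712 of 23952 reached this mean and the median was 0.803 TPM, so the count does not set these 13 genes apart. Cd48 had 5.35, 4.2 and 1.09 TPM, and Itgam, the Mac1 chain, 13.8, 9.87 and 4.00 TPM. Both were lowest in replicate 3. Ly6c1 and Ly6c2, which the Gr-1 antibody also binds, had 12.9, 0 and 4.76 TPM and 17.9, 3.43 and 1.32 TPM, and Ly6g was not analysed here. Ptprc, which encodes all forms of CD45 and not B220 alone, had 29.8, 25.7 and 19.8 TPM. Cd4, a T cell gene, had 3.23, 2.31 and 7.55 TPM and was highest in replicate 3, while Cd3e, Cd3g and Il7r were listed at 0 in all 3 libraries. Among B cell genes, 1 of 16 had a mean of at least 1 TPM, Cd79b with 60.9, 42.5 and 32.7 TPM, while Cd79a and Ebf1 were listed at 0. The 13 genes summed to 0.00450% to 0.00992% of the TPM left. The B cell list summed to 0.00393% to 0.00745% of the TPM left. Of 24 T and NK cell genes, 7 had a mean of at least 1 TPM, led by Nkg7 with 69.8, 115 and 50.7 TPM and Lat with 70.8, 63.1 and 70.7 TPM, and the list summed to 0.0196% to 0.0258%. Of 13 mast cell and basophil genes, 4 passed, led by Gata2, and Cpa3, the mast cell carboxypeptidase, had 1.88, 2.41 and 0.67 TPM.

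Megakaryocyte and platelet genes stood out among the lineages: 23 of 26 had a mean of at least 1 TPM and their median was 28.6 TPM. Several of them are also known as stem cell genes. Nfe2, a factor of platelet formation, had 335, 285 and 364 TPM, and Pf4, platelet factor 4, had 299.5, 466 and 191 TPM. Itga2b (CD41) had a mean of 20.3 ± 2.92 TPM and Gp1bb, a part of the platelet receptor for von Willebrand factor, 6.20 ± 1.22 TPM (SD, n = 3). Of 22 erythroid genes, 15 passed 1 TPM with a list median of 4.39 TPM. Car2, a carbonic anhydrase, was highest with 469.9, 469 and 760.1 TPM. Hba-a1, an alpha globin gene that shares 67.9% of its stretches with Hba-a2, had 8.73, 30.7 and 1.03 TPM, and Klf1, the erythroid Krüppel factor, 4.04, 5.36 and 0.63 TPM. Replicate 3 was lowest in Hba-a1 and Klf1. Of the beta globin genes, Hbb-b2 had 89.3, 79.0 and 55.1 TPM and Hbb-b1 5.84, 17.2 and 7.91 TPM.

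Markers of non-blood cells were mostly near 0, with exceptions among endothelial genes. Of 22 genes of marrow stroma, bone and fat, 7 had a mean of at least 1 TPM, the list summed to 0.00170% to 0.00286% of the TPM left, and Col1a1 was listed at 0. Col1a2 had 4.70, 3.98 and 4.42 TPM and Pdgfrb 3.34, 4.00 and 3.19 TPM, whereas Fabp4, a fat cell gene, had 0, 9.94 and 0 TPM. Of 20 endothelial genes, 9 passed 1 TPM, beside 11712 of all 23952 symbols. The highest, Eng, Esam and Egfl7, are known in stem cells too. Of 3 endothelial markers, Cdh5 was at 0, 0.21 and 0.17 TPM and Kdr at 0.86, 0.87 and 5.25 TPM. Emcn was far higher, with 35.8, 37.8 and 64.35 TPM at rank 2352. Of 40 genes of other organs, 5 passed, led by Mbp with 43.9, 31.4 and 63.1 TPM, and 27 were listed at 0.

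Granulocyte genes varied most. Of 29 granulocyte and monocyte genes, 22 had a mean of at least 1 TPM, and 15 of these 22 were more than 4-fold apart, beside 4.31% of all genes. Their median SD of log2(TPM + 1) was 1.58, the widest of the 46 lists. S100a8, a calcium-binding protein of neutrophils, had 2127, 67.8 and 90.5 TPM, and its partner S100a9 1403, 77.0 and 104 TPM. Ngp, a granule protein, had 363, 13.8 and 42.9 TPM, and Camp, the cathelicidin, 243, 10.4 and 4.22 TPM. Chil3 had 83.2, 0.91 and 7.70 TPM and Ltf, lactoferrin, 47.5, 0.62 and 1.36 TPM. In all of these replicate 1 was far above both others, which were within a few fold of each other in S100a8 and S100a9 and less close in Chil3.

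The list did not move as one. Mpo and Elane, enzymes of the earlier granules, had 125, 127 and 21.9 TPM and 69.4, 56.0 and 7.83 TPM, so that replicate 3 was apart and replicates 1 and 2 were alike. Lyz2, lysozyme, had 393, 509 and 491 TPM. The whole list summed to 0.639%, 0.141% and 0.130% of the TPM left in replicates 1, 2 and 3. Without replicate 1, 6 of the 22 were over 4-fold apart, without replicate 2 it was 13, and without replicate 3 it was 10. Over all 11712 genes the counts were 247, 263 and 186 with the same libraries left out. In macrophage genes, at lower levels, replicate 1 was also the highest library, but replicate 2 and not replicate 3 was the lowest by the list's sum, with 0.0161%, 0.00536% and 0.00830%. Replicate 1 was the highest in 13 of 16, of which 6 had a mean below 1 TPM. Over the 11712 genes whose mean reached 1 TPM, it was highest in 2732. Of the 10 macrophage genes at that level 4 were over 4-fold apart, beside 4.31% of all genes and 6.93% of those in ranks 5001 to 11712. A gene can reach this mean through 1 high library, so the count may partly follow from the filter. It cannot tell whether macrophage genes vary more than others of their level. C1qb, a complement subunit, had 23, 0.17 and 2.61 TPM, and Vcam1, an adhesion molecule, 6.36, 0.15 and 0 TPM. The part of granulocytes or macrophages in these and other differences between libraries was not tested.

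**Figure D4:**
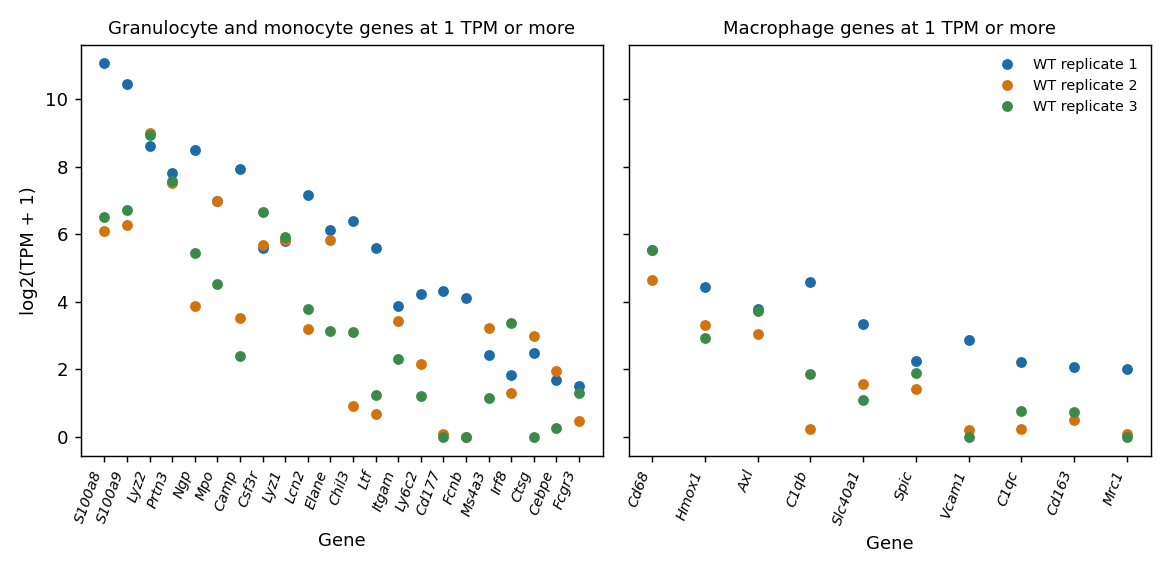
Level of granulocyte and monocyte genes (left) and macrophage genes (right) with a mean of at least 1 TPM, on the log2(TPM + 1) axis, with 1 point for each WT library and genes in order of mean. Replicate 1 is far above the others in S100a8, S100a9, Ngp, Camp and C1qb, whereas Lyz2 lies close together and Mpo and Elane are low in replicate 3.

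Spread between experiments grew as the level fell. The SD of log2(TPM + 1) over the 3 libraries had a median of 0.41 over the 11712 genes. It was 0.23 in the first 100 ranks, 0.29 in ranks 101 to 1000, 0.37 in ranks 1001 to 5000 and 0.47 below. More than 2-fold differences were found in 3838 genes (32.8%), with 5 of the first 100, 89 of the next 900 and 42.0% of the 6712 genes below rank 5000. More than 4-fold differences were found in none of the first 100 and in 4 of the next 900. Those were S100a8, S100a9, Ngp and Vmp1, an autophagy gene with 101, 56.0 and 316 TPM that was named after its values were seen.

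**Figure D5:**
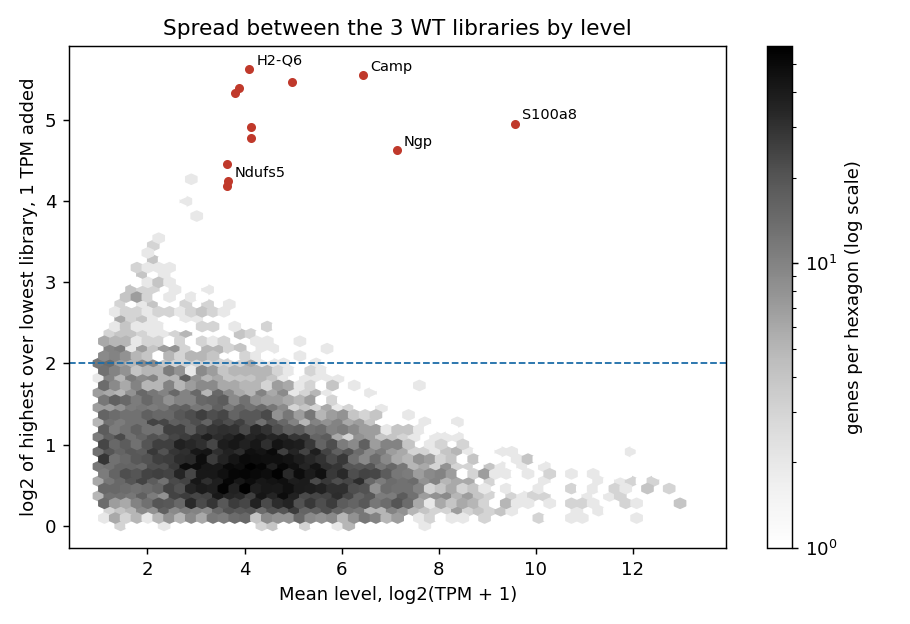
Spread between the 3 WT libraries, as log2 of the highest over the lowest library with 1 TPM added to both, against the mean level as log2(TPM + 1). Grey hexagons count genes whose mean reached 1 TPM, red points are the 12 widest genes whose mean was at least 10 TPM, and the dashed line at 2 marks 4-fold, which 505 genes exceed.

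The libraries also differed as wholes. The median deviation of a gene from its own mean was -0.04, -0.20 and 0.25 on the log2(TPM + 1) scale in replicates 1, 2 and 3, and 7045 of the 11712 genes were highest in replicate 3. With this shift taken off, ribosomal proteins of the large subunit were 0.45 higher in replicate 2 and 0.41 lower in replicate 3 by the median member, and those of the small subunit 0.33 higher and 0.41 lower. Without it taken off, the large subunit was 0.25 higher in replicate 2 and deviated by -0.16 in replicate 3, and the small subunit was 0.13 higher and deviated by -0.16. Rpl37 was the widest of the large subunit with 1203, 2149 and 801 TPM, and Rps10 of the small subunit with 3139, 5135 and 2197 TPM. Stem cell identity genes deviated by 0.03, -0.11 and 0.04 with the shift taken off, and 13 of the 50 were more than 2-fold apart and none more than 4-fold, beside 32.8% and 4.31% over all genes. The rRNA-like symbols moved between libraries as well. Rn45s, Gm20594 and Lars2 together made up 15.4%, 15.7% and 11.2% of the whole table in replicates 1, 2 and 3. Transcript length moved with the library too. Genes with transcripts under 500 nucleotides were 0.13 lower in replicate 3 and 0.09 higher in replicate 2 by the median with the shift taken off, and those over 4000 nucleotides were 0.05 higher and 0.09 lower. The median length was 703 nucleotides in the first 100 ranks, 824 in ranks 101 to 1000, 1139 in ranks 1001 to 5000 and 1636 below. The part of length, of the rRNA-like symbols and of ribosomal transcripts in the shift was not tested. Nor was the part of length in the ranking of genes.

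The widest genes whose mean was at least 10 TPM fell into 3 kinds. Camp, S100a8, Ngp, Chil3 and Ltf are granule or granulocyte genes, as above. Short noncoding RNAs made up a further group. Mir703 had 0, 26.2 and 23.2 TPM, Mir5123 0, 0 and 39.0 TPM, Snora68 17.1, 17.1 and 0 TPM, and Snora81 13.2, 20.9 and 0 TPM. The hairpins of both miRNA genes are 109 and 83 nucleotides long, near the length of a read, so their levels rest on few positions. Their mature sequences, from RefSeq with bases 2 to 8 (the seed) in capitals, are given to identify the rows and show no shared seed.
mmu-miR-703: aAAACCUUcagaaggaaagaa
mmu-miR-5123: uGUAGAUCcauaugccauggugug

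The last kind shares sequence with another gene. H2-Q6, a class Ib gene, had 48.3, 0.02 and 0 TPM, and 17.9% of its 75-base stretches lie in other symbols, while its relative H2-Q7 had 320.0, 308 and 229 TPM. Gm7367, a transcribed pseudogene, had 41.0, 0 and 0 TPM and shared 86.4% with Ubald2. Ndufs5, a subunit of respiratory complex I, had 17.9, 0 and 16.9 TPM and shared 15.7% with BC002163, which had 96.4, 127 and 112 TPM. Reads of these 3 genes may be divided with other symbols, and the part of this in their spread was not tested. Rps23, named above as steadier, shared 33.9%. The partners H2-Q7, BC002163 and Ubald2 are named only for this sharing. At 0 in exactly 1 library and at 5 TPM or more in both others were 9 symbols in all.

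Among the 12 steadiest genes whose mean was at least 100 TPM were Mbnl1, Tpi1, Clic1, Gm15772, Gm6644, Got2, Map1lc3b, Ndufb4, Ly6e, Eef1b2 and Ergic3. Mbnl1, a splicing regulator, had 103, 102 and 102 TPM. Clic1, a chloride channel protein, had 330.0, 338 and 337 TPM, and Got2, a mitochondrial aminotransferase, 117, 119 and 121 TPM. Ly6e, a surface protein of the Ly6 family, had 1312, 1269 and 1341 TPM. These values are steady as TPM of the whole table, and replicate 3 would fall relative to the others if its median shift were taken off. Gm6644, a transcribed pseudogene, shared 91.4% of its stretches with other symbols. Gm15772 shared 71.4%, and its sum with Rpl26, its closest symbol, was less steady at 3002, 2556 and 2826 TPM.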

How the data were processed

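RNA-seq was read out in 3 WT libraries of sorted stem cells, 1 from each of 3 experiments. The values are TPM per gene symbol as deposited by the authors. RSEM, Bowtie2 and mm9 are named per the submitters' processing notes. Their versions and settings and the gene annotation are not given in the sources used here. TPM keeps no read count, so depth is unknown and no counting interval is given, and 3 libraries limit the precision.

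Rn45s, Gm20594 and Lars2, which share sequence with or overlap rRNA, were set aside, and the values were left on the scale of the whole table. Mean, SD and rank were computed over the 3 libraries, and ranks run over the 23952 symbols left. Spread is the SD of log2(TPM + 1), or the ratio of the highest to the lowest library with 1 TPM added, over the 11712 genes whose mean reached 1 TPM. No test was run, since each experiment has 1 library.

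Named genes are the 25 highest; the markers and the genes of the sorting antibodies; of each of 46 gene lists with symbols in the table the 3 highest, the lowest and the widest; the 15 highest transcription factors; the 12 widest with a mean of at least 10 TPM; the 12 steadiest with a mean of at least 100 TPM; those in the top 100 of 1 library alone; and near-identical copies in the top 100. The groups described and the lists were chosen with earlier results of these data known. Mitochondrially encoded genes and a few list members, such as Ahsp and Trbc1, were not analysed here. A few genes that the naming rule picks are not reported here.

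Alternatives were other scalings, filters, added values, a median in place of the mean, and leaving out each library. Transcript lengths and shared 75-base stretches came from GENCODE M21, and promoter and miRNA sequences from RefSeq (GRCm38.p6). Both are later than mm9, were matched by gene name, identifier or synonym, and no coordinates were carried between builds. Python 3.11.15, numpy 2.4.6, pandas 2.3.3 and matplotlib 3.10.9 were used, and the scripts were tested on simulated data.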

Additional observations from a re-analysis of the deposited data

How the results depend on the processing

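No paired analysis was possible because the results come from 1 group and from no test. The median spread of 0.41 was 0.35 with median-of-ratios scaling, whose factors were 0.967, 0.861 and 1.20 for replicates 1, 2 and 3. With the rRNA-like symbols kept, the 100 highest held 52.2% and 88 genes held 50% of the TPM, since those symbols then count among the highest. The 505 genes over 4-fold apart became 218 when a mean of 5 TPM was required, 817 with 0.5 TPM added, 1126 with 0.1 TPM added and 3838 with a limit of 2-fold. Leaving out 1 library gave 186 (without replicate 3) to 263 (without replicate 2) such genes and 247 without replicate 1, and a median spread of 0.29 to 0.40, with fewer libraries to differ. The number of genes at 1 TPM or more stayed between 11465 and 11897, the share of TPM in the 100 top genes between 42.9% and 47.3% with a library left out, and the genes in the top 100 of every library between 89 and 94. Of 276 list medians 38 moved by more than the spread between libraries, 18 of them on rescaling after the rRNA-like symbols were set aside, and of 1722 levels of named genes 75 did, 73 of them on that rescaling. Setting aside mitochondrially encoded genes was not run, because 0 of their symbols matched. Without counts, genes near 1 TPM cannot be told from sampling noise.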

Other observations

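Genes of the sex chromosomes differed between the libraries. The Y-linked genes Eif2s3y, Ddx3y, Uty and Kdm5d had 3.33, 1.78, 2.56 and 1.11 TPM in replicate 1 and 5, 2.61, 1.57 and 1.45 TPM in replicate 3, and all 4 were listed at 0 in replicate 2. Xist, which is transcribed from the inactive X chromosome, had 165, 243 and 188 TPM in replicates 1, 2 and 3. Xist was thus high in all 3 libraries, 2 of which also held transcripts of all 4 Y-linked genes. Replicate 2 was highest for Xist and had none of the Y-linked transcripts. The labels give no sex for any of the 3 libraries.

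A few genes known from other organs were above 1 TPM in all 3 libraries. Mbp, a myelin protein gene that also has blood cell transcripts, had 43.9, 31.4 and 63.1 TPM. Cela1, a pancreatic elastase gene, had 18.9, 27.2 and 17.9 TPM, and Pomc, a hormone precursor gene, 2.56, 2.67 and 1.26 TPM. Mbp was highest in replicate 3 and lowest in replicate 2, and Cela1 was highest in replicate 2. Among survival genes, Bcl2l2 had 26.8, 7.18 and 9.78 TPM and Bak1 127, 137 and 116 TPM. Among chromatin regulators, Hdac1, Rbbp7 and Dnmt1 led with means of 189.6, 136 and 75.6 TPM. Pcgf1, a polycomb subunit, had 8.14, 15.4 and 44.2 TPM and was highest in replicate 3.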
